A study of Homo sapiens with 8 samples.

Results

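Ribosome footprints of MYCN and of the genes that encode its partner network were examined in IMR32, an established human neuroblastoma cell line that carries extra copies of the MYCN gene. The network was defined by 10 gene symbols, MYCN, its antisense gene MYCNOS, MYC, MAX, MXI1, MXD3, MXD4, MNT, MLX and MGA. Each of the 10 was found among the 60651 genes of the deposited table through its Ensembl identifier, and 9 of them averaged at least 1 TPM over the 8 libraries and could be tested. TPM is the footprint level divided by transcript length and scaled to a fixed sum per library. A higher or lower level is thus relative to the other footprints of that library, and total footprints were not measured. Footprints come mainly from coding sequence, so levels of different genes compare only roughly where the untranslated share of the transcript differs. All libraries were ribosome profiling libraries (Ribo-seq, the sequencing of mRNA fragments that ribosomes shield from nuclease) of IMR32 cells labelled wild type. Cells of 4 libraries had been treated for 6 h with CR31B, a synthetic analogue of silvestrol, and cells of the other 4 had received the solvent DMSO at 0.1%. Both groups were given cycloheximide, which arrests elongating ribosomes, before harvest, and fragments of 28 to 30 nt were isolated from a gel. The submitters describe the libraries as biological replicates of the cell line, so p-values measure the spread between cultures of 1 line. No library of total mRNA was analysed here, so a footprint level combines the amount of an mRNA with how many ribosomes it carries.

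MYC and MYCN are transcription factors of the basic helix-loop-helix leucine zipper type, which bind DNA only as a dimer with MAX, at the E-box CACGTG. The repressors MXI1, MXD3, MXD4 and MNT compete for the same MAX and bring the SIN3 corepressor with its histone deacetylases to these sites. MGA also pairs with MAX, inside the Polycomb-like complex PRC1.6, and MLX is a MAX-like protein that pairs with MNT, some MXD proteins and the glucose-sensing factors of the Mondo family. CR31B belongs to the rocaglates, compounds that clamp the RNA helicase eIF4A onto purine-rich stretches of RNA, and short-lived proteins such as MYCN depend on continued translation. MYCN amplification marks aggressive neuroblastoma.

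Because rocaglates act on purines, purine runs of the mRNA leaders (the sequence before the start codon) were searched. They are shown for MYCN, the most abundant activator, its partner MAX, and MXI1, the repressor with the longest run found. In each, 100 nt before the start codon of a principal GENCODE 29 transcript were searched for the longest unbroken run of A and G, given in capitals within 30 nt of context.
MYCN: cgccccccacGGGAAGGAAGcacccccggt
MXI1: ctgtcggcccGAGAAGGGAGtgcggagagg
MAX: tGGGGGGGActcggcttgttgttgtcggtg
The MYCN run is 10 nt long and ends 65 nt before the start codon, in a leader of 297 nt. The MXI1 run has the same length, and runs at least as long occur in 16.62% of the 7641 tested genes whose leader reaches 100 nt. The MAX run of 8 nt is reached by 35.2% of them. The MGA run is 7 nt long and the MXD4 run 6 nt. In the 100 nt searched, MXD3 and MNT hold none above 5 nt, which 86.7% of the leaders reach. The MNT run begins at the edge of the searched stretch, so it may extend further upstream. The leader of MLX is 53 nt long and was not searched, nor were MYC and MYCNOS.

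Whether the network genes themselves carry the E-box that their proteins bind was searched in the RefSeq promoter windows of GRCh38.p14, which span each gene's start site and in which 9 of the 10 genes were found. The motif CACGTG reads the same on both strands and occurs in 7.43% of all 27305 windows, taking the first window listed per gene. Among the 8759 tested genes with such a window it occurs in 10.8%. In the network it was present in 3 of the 9 windows, those of MNT, MLX and MXD4, and each site is shown in capitals.
MNT: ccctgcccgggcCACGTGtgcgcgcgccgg
MLX: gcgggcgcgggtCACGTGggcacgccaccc
MXD4: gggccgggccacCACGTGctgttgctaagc
The MNT stretch lies at chr17:2401236-2401265 on the minus strand, and its motif begins 193 bases before the start site. The MLX stretch lies at chr17:42567038-42567067 on the plus strand, 50 bases before the start, and the MXD4 stretch at chr4:2262330-2262359 on the minus strand, 238 bases before it. A match describes the letters only, and no binding was measured here.

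The libraries were those of an adrenergic neuroblastoma line. Of 10 adrenergic markers, 9 averaged at least 1 TPM, with a summed level from 644 to 817 TPM in DMSO and from 703 to 804 TPM in CR31B, while TH stayed below that mean. HAND2, one of them, rose from 181 to 271 TPM (log2 fold change 0.58, limma adjusted p of 0.0188). Leukocyte and epithelial markers summed to at most 0.08 and 0.06 TPM in any library. Endothelial markers, nearly all CDH5, summed to 0.62 to 1.01 TPM in DMSO and to 0.35 to 0.57 TPM in CR31B. These ranges did not overlap, a separation found for 16.2% of single tested genes, and PECAM1 was at 0 in every library. The part of these differences in the results below was not tested. Mesenchymal-state markers summed to 4.82 to 10.94 TPM and fibroblast markers to 5.52 to 16.3 TPM, the latter nearly all COL1A1, and for both lists the ranges in DMSO and CR31B overlapped. Between 17857 and 22270 genes were above 0 per library. Protein-coding genes took 61.3% of TPM in CR31B replicate 1 and 51.8% to 58.4% in the other libraries.

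Levels within the network spanned a wide range (plot of footprint levels by library). Their order holds only as far as TPM compares between genes. MYCN stood first, at rank 194 of all genes by its mean of 742 TPM, and was 5.50 times as high as MAX. MAX followed at 135 TPM, MYCNOS at 53.1 TPM, MLX at 36.96 TPM and MXD3 at 28.8 TPM. The remaining repressors were lower, MXI1 at 12.2 TPM, MNT at 9.37 TPM and MXD4 at 4.83 TPM, with MGA between the last pair at 7.89 TPM. MYC was last at 0.411 TPM. MYCN exceeded MAX, and MAX exceeded MYCNOS, in 8 of 8 libraries with ranges apart in both groups. MLX was above MXD3 in 6 libraries, with ranges that overlapped in both groups. MNT was above MGA in 6 libraries, with ranges apart in DMSO and overlapping in CR31B. The ranges of MXI1 and MNT and those of MGA and MXD4 overlapped in DMSO only, and those of MYCNOS and MLX in CR31B only.

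**Figure D1:**
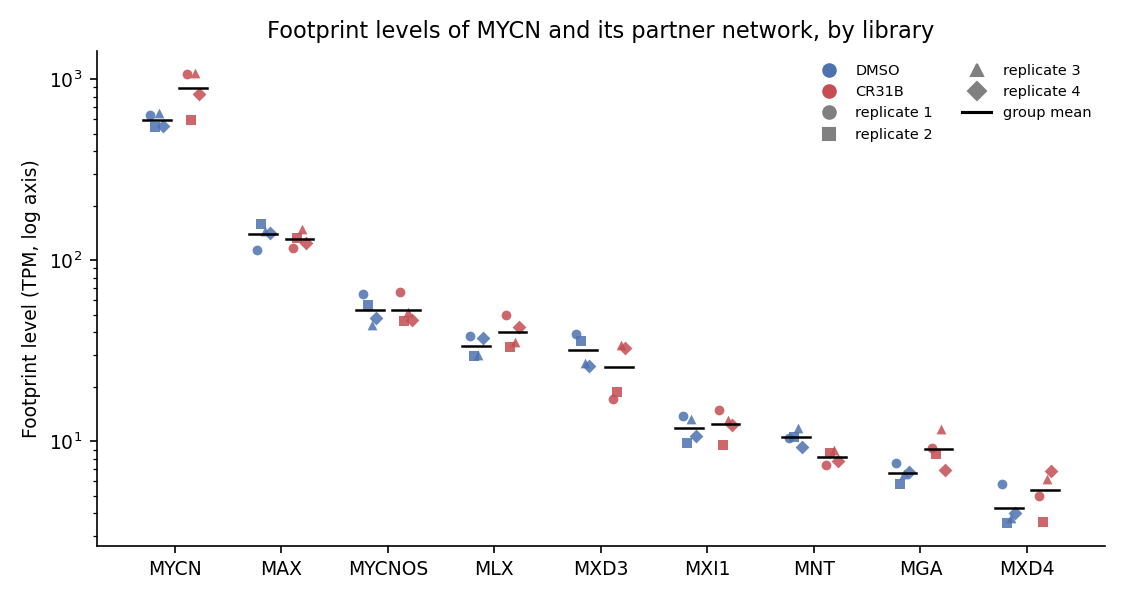
Footprint level in TPM on a log axis for 9 members in each of the 8 libraries; colour gives the treatment, marker shape the replicate number, and the black line the group mean. MYCN lies above every other member in all libraries, and MYC, which averaged 0.411 TPM and is listed at 0 in 1 library, is not drawn.

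The comparison of CR31B with DMSO asked how footprints on MYCN and its partners change under an inhibitor of eIF4A, relative to all other footprints. A change in total footprints would not be seen in TPM. None of the 9 tested members passed a limma adjusted p of 0.05 over all genes tested, beside 7.46% of all 11778 tested genes (3.45% higher and 4.02% lower in CR31B). At an unadjusted p under 0.05, 3 of the 9 did (MYCN, MNT and MGA), against 23.4% of all genes, and with the replicate number as a block 1 did (MYCN), against 12.3%. The log2 fold change was above 0 for 5 of the 9, with a median of 0.064 beside 0.029 for all genes tested. Fold changes are of TPM + 1, which understates those of low genes.

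MYCN, the MYC-family activator amplified in this line, was at 636, 542, 647 and 548 TPM in DMSO replicates 1 to 4. In CR31B it was at 1070.1, 595, 1076 and 825 TPM. The CR31B libraries of replicates 1, 3 and 4 lay above every DMSO library, and that of replicate 2 lay inside the DMSO range. The log2 fold change was 0.55 (SE 0.19, 95% interval 0.13 to 0.97), with a limma adjusted p of 0.110 and an exact permutation p of 0.0857 over 70 assignments of libraries. Pairs are here libraries of the same replicate number, and the sample labels do not state that they were prepared together. Within these pairs the log2 difference of MYCN was 0.75, 0.13, 0.73 and 0.59. With the pairs as a block the limma adjusted p was 0.0301 (interval 0.26 to 0.84), and without CR31B replicate 2 the fold change was 0.73 with a limma adjusted p of 0.0242, so both changed the call. The level rests on a rough estimate of 75574 to 159675 reads per library.

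Genes whose level moved most like that of MYCN, once the group means were removed, were ZNF512, C1orf112 and SLC8A1, with Pearson correlations of 0.990, 0.985 and 0.984 over the 8 libraries. These are the highest correlations among all tested genes, over libraries that share depth and scaling, and they are a description only. In CR31B replicate 2, the CR31B library with the lowest MYCN, SLC8A1 was at 1.13 TPM, while CR31B replicates 1, 3 and 4 held 2.16 to 3.73 TPM, and C1orf112 was at 8.96 TPM, beside 10.96 to 14.3 TPM.

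MYCNOS is transcribed from the opposite strand and overlaps MYCN exons. It was at 65.3, 56.5, 43.6 and 47.7 TPM in DMSO and at 67.04, 46.3, 51.5 and 46.9 TPM in CR31B. The groups overlapped across nearly their whole range, and the log2 fold change was -0.0076 (SE 0.16, interval -0.36 to 0.35, limma adjusted p of 0.982), with a sign that turned under several alternatives. MYCN was 11.4 ± 2.44 times as high as MYCNOS in DMSO and 16.8 ± 3.36 times in CR31B (SD, n = 4 each), higher in 4 of 4 pairs with groups that overlapped. Whether counting used strand is not given in the sources used here, so reads of the shared exons cannot be told apart.

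MYC, the paralog of MYCN, had very few footprints. Its levels were 0.18, 0.29, 0.43 and 0.51 TPM in DMSO and 0.44, 0.56, 0 and 0.88 TPM in CR31B. It did not pass the filter on low values, and no fold change is given.

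MAX, the dimer partner of MYC proteins and of MXD proteins, MNT and MGA, was at 113, 157, 144 and 142 TPM in DMSO and at 117, 133, 149 and 124.5 TPM in CR31B. The groups overlapped. Its log2 fold change was -0.083 (SE 0.13, interval -0.37 to 0.20, limma adjusted p of 0.754), and 2 of 4 pairs were higher in CR31B.

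Among the repressors, MNT was the 1 member whose groups did not overlap. It was at 10.47, 10.53, 11.9 and 9.32 TPM in DMSO and at 7.43, 8.60, 8.93 and 7.8 TPM in CR31B. Every CR31B library lay below every DMSO library, a separation found in 16.2% of all tested genes. The log2 fold change was -0.33 (SE 0.12, interval -0.59 to -0.063), the exact permutation p was 0.0286, the smallest that 4 and 4 libraries allow, and the limma adjusted p was 0.131 (0.0811 with the block).

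MXD3, a repressor of the MXD family expressed in dividing cells, was at 39.1, 35.6, 27.1 and 25.9 TPM in DMSO and at 17.1, 18.6, 34.2 and 32.6 TPM in CR31B. The replicate pairs divided: the log2 difference was -1.14 and -0.90 in pairs 1 and 2 and 0.33 and 0.32 in pairs 3 and 4 (plot of differences within replicate numbers). Over all libraries the log2 fold change was -0.35 (SE 0.24, interval -0.87 to 0.18, limma adjusted p of 0.415). MXD3 exons overlap RAB24 on the same strand and PRELID1 on the other. RAB24 was at 4.09 to 5.54 TPM and PRELID1 at 36.4 to 54.03 TPM, and neither divided the pairs in this way.

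MXI1, also known as MXD2, showed no such division. It was at 13.8, 9.78, 13.2 and 10.65 TPM in DMSO and at 14.97, 9.54, 13.2 and 12.2 TPM in CR31B, a log2 fold change of 0.064 (SE 0.16, interval -0.29 to 0.42, limma adjusted p of 0.860) whose sign turned without DMSO replicate 2 (-0.017) or without CR31B replicate 1 (-0.023). MXD4 was the lowest of the repressors, at 5.80, 3.53, 3.76 and 4.00 TPM in DMSO and 4.96, 3.6, 6.22 and 6.81 TPM in CR31B. Its log2 fold change was 0.27 (SE 0.20, interval -0.17 to 0.70, limma adjusted p of 0.453). As with MXD3, pairs 3 and 4 had the higher differences, at 0.60 and 0.64, beside -0.19 and 0.022 in pairs 1 and 2.

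**Figure D2:**
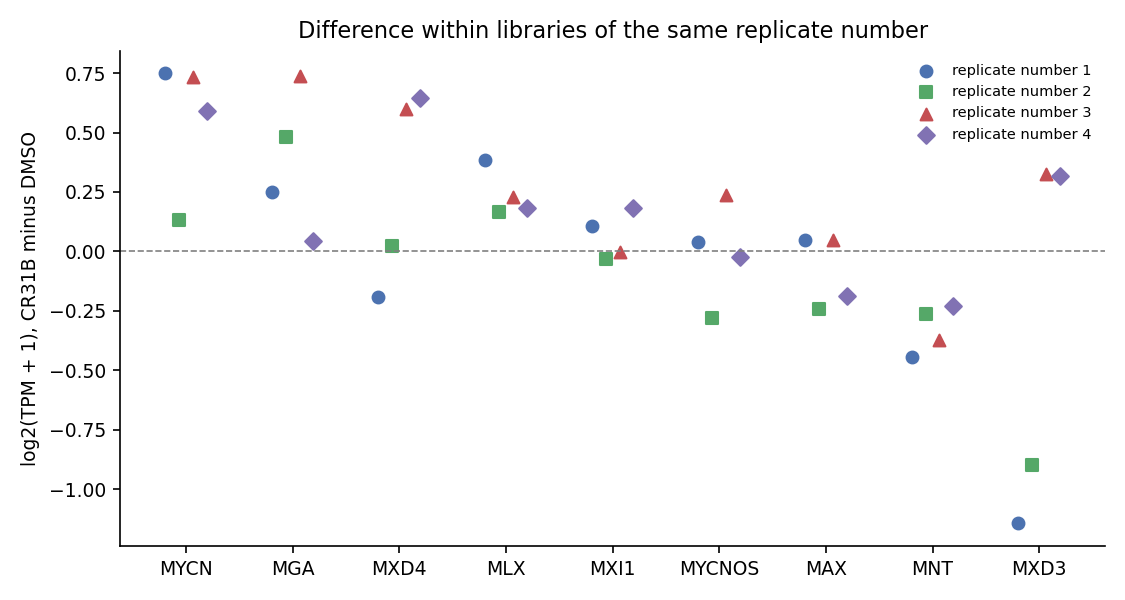
Difference in log2(TPM + 1), CR31B minus DMSO, within each replicate number, for each tested member; marker and colour give the number. All 4 points lie above 0 for MYCN, MGA and MLX and below 0 for MNT, while MXD3 has points at -1.14 and -0.90 and points at 0.33 and 0.32.

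MLX, the MAX-like partner, was at 37.9, 29.4, 30.1 and 37.3 TPM in DMSO and at 49.9, 33.1, 35.4 and 42.5 TPM in CR31B, a log2 fold change of 0.24 (SE 0.15, interval -0.097 to 0.58, limma adjusted p of 0.379). All 4 pairs were higher in CR31B, although the groups overlapped. MLX exons overlap PSMC3IP on the other strand, which was at 34.96 to 48.75 TPM with a log2 fold change of 0.0057.

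MGA, the scaffold that brings MAX to PRC1.6, was at 7.59, 5.80, 6.61 and 6.74 TPM in DMSO. In CR31B it was at 9.21, 8.50, 11.7 and 6.98 TPM, and only the last of these lay within the DMSO range. Its log2 fold change was 0.38 (SE 0.16, interval 0.033 to 0.72, limma adjusted p of 0.174), with an exact permutation p of 0.0571 and 4 of 4 pairs higher.

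**Figure D3:**
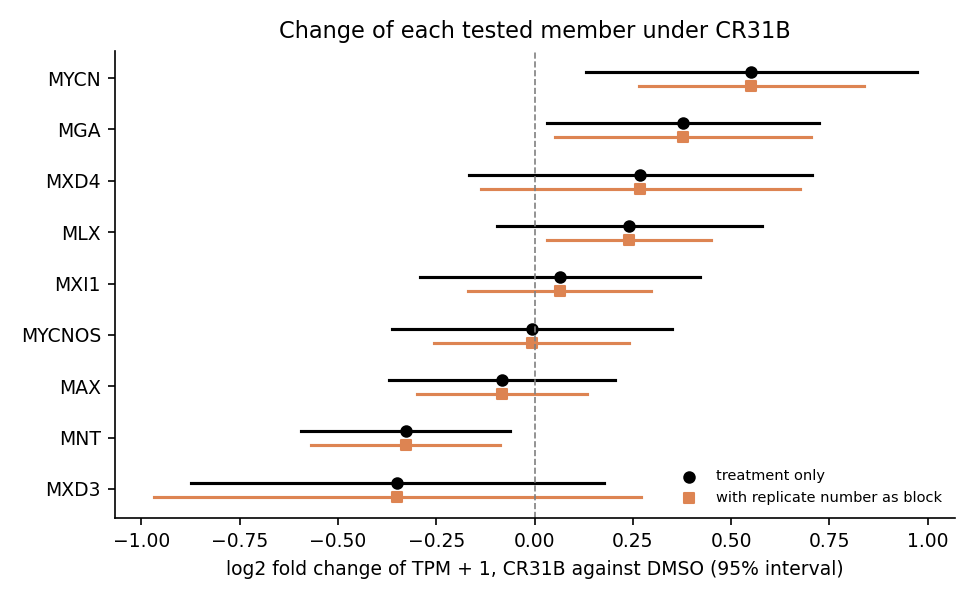
log2 fold change of TPM + 1 for each of the 9 tested members with its 95% interval, from the fit with treatment only (black) and with the replicate number as a block (orange). Intervals are not adjusted for the number of genes tested. With treatment only, 23.4% of all tested genes had an unadjusted limma p under 0.05. The interval lies apart from 0 in both fits for MYCN, MGA and MNT, and for MLX in the blocked fit alone. Of these, only MYCN passed a limma adjusted p of 0.05, and with the block alone. The MXD3 interval is the widest in both fits, from -0.87 to 0.18 with treatment only and from -0.97 to 0.27 with the block.

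The balance between activator and repressors was described as ratios of TPM within a library. MYCN was 5.61, 3.45, 4.49 and 3.86 times as high as MAX in DMSO and 9.12, 4.48, 7.22 and 6.63 times in CR31B, higher in 4 of 4 pairs with groups that overlapped. Against the sum of MXI1, MXD3, MXD4 and MNT, MYCN stood at 9.20, 9.12, 11.6 and 10.98 in DMSO and at 24.05, 14.7, 17.2 and 13.9 in CR31B. The groups did not overlap, a separation found for 16.2% of single tested genes. The repressor sum itself was 58.6 ± 8.05 TPM in DMSO and 51.7 ± 10.9 TPM in CR31B (SD, n = 4 each) and lower in CR31B in pairs 1 and 2 only. MXD3, its largest part with a mean of 31.9 TPM in DMSO, divided the pairs in the same way. The repressor MXD1 was not in the sum. The ratios are descriptions of genes chosen with earlier results known, and no test was made on them.

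**Figure D4:**
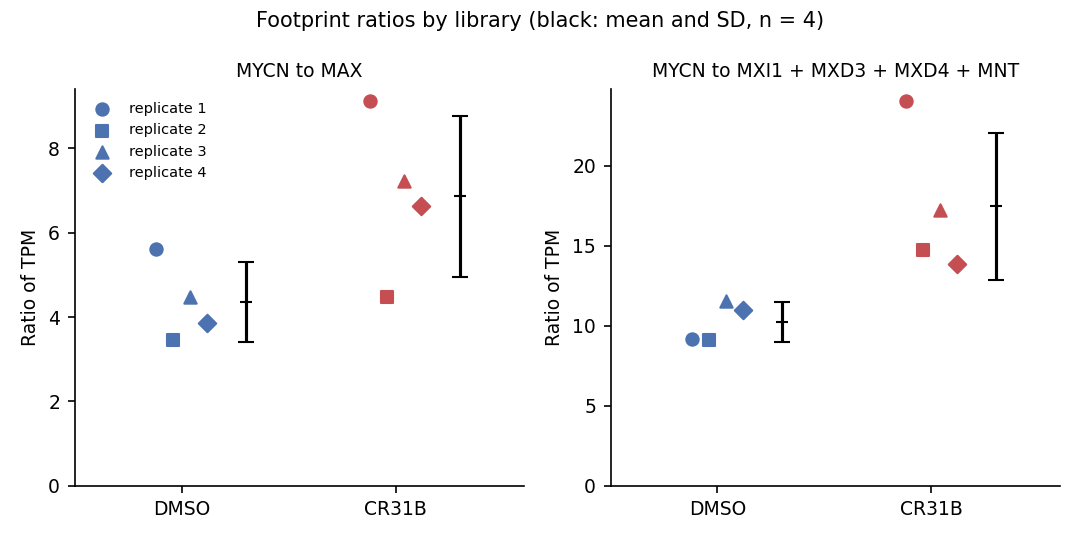
Ratio of TPM in each library, for MYCN to MAX (left) and MYCN to the summed repressors MXI1, MXD3, MXD4 and MNT (right); marker shape gives the replicate number and the black bar the mean and SD of 4 libraries. On the right the CR31B libraries run from 13.9 to 24.05 and the DMSO libraries from 9.12 to 11.6.

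Other genes around the network were read from 7 lists written from general knowledge (strip plot of list members). In the paragraphs on these lists, the genes that passed were named by rule, and every other gene was chosen after its values were seen. In the extended network of MAX-like factors and their targets, 0 of 7 tested genes passed by limma, beside 7.46% of all genes. An unadjusted p under 0.05 was found for 2, USF1 and MXD1, beside 23.4% of all genes, and neither passed with the block. MXD1 is an MXD repressor outside the 10 members. It was at 5.02, 5.32, 2.87 and 4.42 TPM in DMSO and at 5.94, 5.99, 7.08 and 7.88 TPM in CR31B. Each of its CR31B levels lay above each DMSO level, a separation found in 16.2% of all tested genes. Its log2 fold change was 0.53 (SE 0.17, limma adjusted p of 0.0956), opposite in sign to that of MNT.

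Cofactors of MYC proteins and the enzymes that control their turnover had a median of 0.066 on the log2 scale, with 1 of 29 tested genes passing and 4 with the block, beside 7.46% and 12.3% of all genes. The gene that passed was ACTL6A, an actin-like subunit of chromatin remodelling and acetyltransferase complexes, which fell from 102 ± 11.7 to 63.8 ± 11.3 TPM (SD, n = 4 each; log2 fold change -0.68 with SE 0.15, adjusted p by limma 0.0204). The call was lost without DMSO replicate 1, DMSO replicate 4 or CR31B replicate 4, and without the filter on low values (limma adjusted p of 0.0675). The further 3 genes under the block were FBXW7, GSK3B and SUPT5H. FBXW7 is the ubiquitin ligase subunit that marks MYC and MYCN for degradation. It was at 9.21, 9.10, 15.3 and 11.1 TPM in DMSO and at 6.59, 7.87, 7.06 and 4.90 TPM in CR31B. Its groups did not overlap, a separation found in 16.2% of all tested genes. Its log2 fold change was -0.67 (SE 0.19, limma adjusted p of 0.0552, and 0.0443 with the block). GSK3B, the kinase whose phosphorylation FBXW7 reads, was at 82.4 ± 6.83 and 52.5 ± 20.9 TPM in DMSO and CR31B (SD, n = 4 each), with CR31B replicate 3 at 83.3 TPM inside the DMSO range (log2 fold change -0.71, limma adjusted p of 0.0730, and 0.0399 with the block). SUPT5H, an elongation factor that MYC proteins recruit, had a log2 fold change of 0.64 (limma adjusted p of 0.0926, and 0.0142 with the block).

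The SIN3 and NCoR corepressors, through which MXD proteins and MNT act, had a list median of 0.0062, whose sign turned under several alternatives. By limma 0 of 20 passed, 5 had an unadjusted p under 0.05, and with the block 2 passed, HDAC2 and RBBP7, beside 7.46%, 23.4% and 12.3% of all genes. HDAC2, a deacetylase of the complex, was at 82.4 ± 9.40 TPM in DMSO and 62.1 ± 10.5 TPM in CR31B (SD, n = 4 each; log2 fold change -0.41, limma adjusted p of 0.116, and 0.0309 with the block). RBBP7, a histone-binding subunit, was at 47.8 ± 4.08 and 32.2 ± 9.18 TPM (log2 fold change -0.59, limma adjusted p of 0.0684, and 0.0412 with the block). SIN3A and SIN3B, the scaffolds, had log2 fold changes of -0.15 and 0.34, and neither passed.

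In PRC1.6, the complex of MGA, 1 of 14 tested genes passed and 3 with the block, beside 7.46% and 12.3% of all genes, with a list median of -0.041 (0.0051 without DMSO replicate 3). CBX1, a heterochromatin protein, fell from 294 ± 26.6 to 217 ± 7.00 TPM (SD, n = 4 each; log2 fold change -0.43 with SE 0.11, adjusted p by limma 0.0331). This call was lost on leaving out any single library, with log2 fold changes from -0.47 to -0.37, and under quantile normalization (log2 fold change -0.35, limma adjusted p of 0.0702). The others under the block were HDAC2, above, and E2F6, the DNA-binding repressor of the complex, at 7.78 ± 1.09 TPM in DMSO and 5.39 ± 0.732 TPM in CR31B (SD, n = 4 each; log2 fold change -0.46, limma adjusted p of 0.0748, and 0.0374 with the block).

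Genes that MYC proteins activate had a median of 0.092, with 27 of 39 tested genes above 0, 2 passing upward and 1 downward, or 7.69% against 7.46% of all genes. This median was 0.047 without CR31B replicate 1 and 0.15 without DMSO replicate 1. With the block 3 of the 39 passed, and 7 had an unadjusted p under 0.05 by limma, beside 12.3% and 23.4% of all genes. SHMT2, the mitochondrial serine hydroxymethyltransferase, rose from 63.6 ± 5.59 to 124 ± 14.2 TPM (SD, n = 4 each; log2 fold change 0.95 with SE 0.12, adjusted p by limma 0.00193). ODC1, the first enzyme of polyamine synthesis, was at 55.4, 58.4, 63.95 and 55.5 TPM in DMSO and at 113, 71.4, 152 and 95.1 TPM in CR31B, the lowest again in replicate 2 (log2 fold change 0.83 with SE 0.20, adjusted p by limma 0.0312). The ODC1 call was lost without DMSO replicate 1, 2 or 4 or CR31B replicate 1 or 4, and without the filter on low values (limma adjusted p of 0.119). HSPE1, a mitochondrial co-chaperonin, fell from 705 ± 48.04 to 418 ± 49.9 TPM (SD, n = 4 each; log2 fold change -0.76 with SE 0.12, adjusted p by limma 0.00626). Its partner HSPD1 had a log2 fold change of 0.040. HSPE1 and CBX1 have processed copies elsewhere in the genome, so their values are uncertain to the extent that reads were shared.

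Of nucleolar genes on the same list, NCL and NOP56 had log2 fold changes of 0.26 and 0.34 and NPM1 one of 0.15, while FBL had one of -0.29, and none of the 4 passed. Genes that MYC proteins repress had a median of -0.21, with 3 of 11 above 0 and 1 passing, or 9.09% beside 7.46% of all genes. This median was -0.12 without DMSO replicate 3. That gene was CDKN1A, the cell-cycle inhibitor p21, which fell from 26.9 ± 4.90 to 16.7 ± 2.57 TPM (SD, n = 4 each; log2 fold change -0.65 with SE 0.15, adjusted p by limma 0.0299). Its call was lost without DMSO replicate 1, 2 or 4 or CR31B replicate 1 or 3, and without the filter on low values (limma adjusted p of 0.0898).

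**Figure D5:**
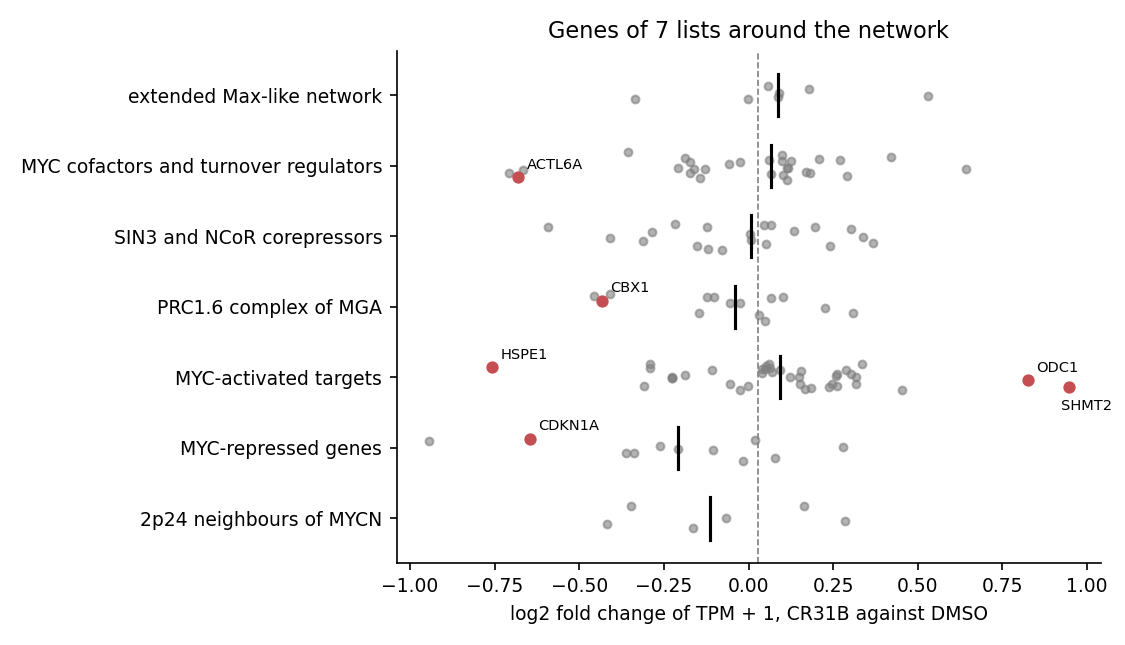
log2 fold change of TPM + 1 for every tested gene of 7 lists; red points passed a limma adjusted p of 0.05 and carry their symbol, black bars are list medians, and the dashed line is the median of all genes tested, 0.029. List medians run from -0.21 for MYC-repressed genes to 0.092 for MYC-activated targets.

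Neighbours of MYCN on the short arm of its chromosome differed widely in footprint level. DDX1, an RNA helicase gene beside MYCN, was at 3671 ± 399 TPM in DMSO and 3526 ± 582 TPM in CR31B (SD, n = 4 each), rank 22 of all genes and above MYCN in every library. NBAS was at 173 ± 21.2 and 196 ± 37.5 TPM, whereas CYRIA averaged 1.42 and 1.2 TPM in DMSO and CR31B. Of the 6 neighbours tested, 0 passed by limma or with the block, beside 7.46% and 12.3% of all genes. An unadjusted p under 0.05 was found for 1, TRIB2 (log2 fold change -0.35), beside 23.4% of all genes. The ratio of MYCN to DDX1 was 0.164 ± 0.0321 in DMSO and 0.259 ± 0.0789 in CR31B (SD, n = 4 each), higher in 4 of 4 pairs with groups that overlapped.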

How the data were processed

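The authors deposited gene-level TPM values of 8 Ribo-seq libraries. Per the submitters' processing notes, cutadapt 3.2, Bowtie2 2.3.4.1, STAR 2.7.1a, RSEM 1.2.28 and DESeq2 1.32.0 were used with GRCh38, with no role stated, and the annotation and strand setting are not given in the sources used here. Symbols were found for 60481 of 60651 identifiers. Values were analysed as log2(TPM + 1) for the 11778 genes averaging 1 TPM or more, in limma 3.58.1 (R 4.3.3; lmFit, then eBayes with a trend), with Benjamini-Hochberg adjustment over these genes, and the fit was tested on simulated data. No count model was used. Single members were also compared by a two-sided exact permutation test of TPM. Reads were estimated from the value of 1 read in low single-transcript genes, assuming 29 nt footprints and GENCODE 29 lengths, and cover counting error only. Deposited TPM values are rounded, in steps that can reach the value of 1 read in such genes, so these estimates are rough.

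Members and lists were chosen with earlier results of these data known. The naming rule took all 10 members, from each list the genes that passed (at most 4, by size of change) and the 3 genes most like MYCN; all other genes named were chosen after their values were seen. Same-numbered libraries of replicates 1, 2 and 3 deviated together across genes, with correlations of 0.333, 0.324 and 0.301. That of replicate 4 was 0.105, inside the range of unmatched numbers. That range was -0.206 to 0.134, the highest between CR31B replicate 4 and DMSO replicate 1. The replicate number was used as a block in an alternative fit only. Other alternatives changed the pseudocount, filter, scaling and variance trend and left out each library. Exons of 9 members overlap another gene in GENCODE 29. Remaining steps ran in Python 3.11.15 (NumPy 2.4.6, pandas 2.3.3) and figures were drawn in matplotlib 3.10.9.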

Additional observations from a re-analysis of the deposited data

Results flagged for a closer look

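Of 58 sets of 4 same-treatment libraries examined, 4 contained 1 value separated from the rest by most of the set's spread; about 2.9 such sets arise by chance. CDKN1A stood at 34.13 TPM in DMSO replicate 4, against 23.64 to 25.33 TPM in the other DMSO libraries; without it the log2 fold change was -0.53 and the limma adjusted p 0.0862. The median of MYC-activated targets, relative to the DMSO mean, was 0.30 on the log2 scale in CR31B replicate 1 and -0.0096 to 0.034 in the other CR31B libraries. The median of MYC cofactors and turnover regulators was 0.15 in the same library and -0.049 to -0.022 in the others. That library also had the largest share of protein-coding TPM, 61.3%, and the part of this share in both medians was not tested. The median of the extended MAX-like network was -0.15 in DMSO replicate 2 and 0.028 to 0.054 in the other DMSO libraries.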

How the results depend on the processing

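Blocking on replicate number raised the genes that passed from 879 to 1453, and MYCN became the 1 member to pass (log2 fold change 0.55, limma adjusted p of 0.0301); no other member's call changed. Without a filter on low values 442 genes passed. Leaving out 1 library gave 404 to 785 genes (404 without DMSO replicate 4, 502 and 514 without DMSO replicates 1 and 2, 516 without CR31B replicate 4) and 0 to 1 members, the 1 being MYCN without CR31B replicate 2. The MYCN fold change ran from 0.45 to 0.73 without 1 library and from 0.53 to 0.61 under the other alternatives, with limma adjusted p from 0.0242 to 0.287. MYCNOS turned to 0.027 after rescaling over protein-coding genes and ran from -0.12 to 0.094 without 1 library; MXI1 ran from -0.023 to 0.18. The median of the cofactor list was -0.059 with a mean of at least 10 TPM and -0.023 to 0.084 without 1 library, and that of the extended network 0.0093 to 0.29. Without 1 library the medians ran from -0.015 to 0.069 (SIN3 and NCoR), -0.068 to 0.0051 (PRC1.6), 0.047 to 0.15 (MYC-activated), -0.27 to -0.12 (MYC-repressed) and -0.22 to -0.024 (neighbours of MYCN). Calls over all genes were 406 higher and 473 lower, against 544 and 518 after rescaling over protein-coding genes, 292 and 487 without CR31B replicate 1, and 395 and 346 without CR31B replicate 2. The difference of the MYCN to MAX ratio stayed between 1.76 and 3.30. MAX, MXD3, MXD4, MNT, MLX and MGA kept their sign and did not pass under any alternative that tested them. Rescaling over protein-coding genes raised the calls among MYC-activated targets from 3 to 6 of 39, and quantile normalization to 5. Calls over all 11778 genes rose as well, from 879 to 1062 and 1174. Of the tested members the lowest, MXD4, rests on a rough estimate of 716 to 1483 reads per library. MYC was too low to test.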

Other observations

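Across all genes whose leader reaches 100 nt, calls were more frequent where the longest purine run was long. Of 2436 genes with runs of at most 5 nt, 7.47% passed (limma adjusted p under 0.05), 4.35% lower and 3.12% higher in CR31B. Of 3366 genes with runs of 6 to 8 nt 8.91% passed, and of 1274 with runs of 9 to 11 nt, the class of MYCN and MXI1, 9.11% passed. Of 565 genes with runs of 12 nt or more, 14.5% passed, 9.56% lower and 4.96% higher, with a median log2 fold change of -0.041. Leader composition and length were not matched between the classes, and no test was made.

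The E-box CACGTG was present in the promoter window of 12 of 30 MYC-activated targets with a listed window (40.0%) and of 10.8% of 8759 tested genes. Among tested genes, 6.98% of the 946 with the motif passed, beside 7.21% of the 7813 without it, with median log2 fold changes of 0.020 and 0.038.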
